A study of Mus musculus with 6 samples.

Results

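Integrins are the heterodimeric receptors, each made of an alpha and a beta chain, by which a cell holds on to the extracellular matrix. Expression of 10 integrin subunit genes, Itgb1, Itgb3, Itgb4, Itgb5, Itga2, Itga3, Itga5, Itga6, Itgav and Itga7, was examined by RNA sequencing in ID8 cells. They were taken by symbol from a table of 53465 mouse genes, and all 10 were found in it. ID8 is a line of mouse ovarian surface epithelial cells that forms tumours in the peritoneal cavity. Cells stably transfected with sgNC served as controls, and cells stably transfected with sgNat10 were the other group. The libraries are labelled only WT and KO, 3 of each, and these were read as sgNC and sgNat10. Nat10 encodes the enzyme that writes N4-acetylcytidine (ac4C) on RNA, and the study compared transcript levels with and without its depletion. No source used here says whether either line is a single clone, and guide and line cannot be told apart. Nor does any say that replicates, numbered 4 to 6, came from separate cultures. The p-values then reflect only how far these libraries spread, and that spread may be technical.

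The alpha chain largely sets which matrix protein is bound, and the beta chain carries most of the cytoplasmic link to talin, kindlin and the actin skeleton. The β1 chain pairs with many alpha chains. With α5 it forms the classical fibronectin receptor, with α3, α6 or α7 a laminin receptor and with α2 a collagen receptor. The αv chain pairs with β1, β3, β5, β6 or β8 to bind ligands with an RGD (Arg-Gly-Asp) motif, such as fibronectin, vitronectin and osteopontin, and several of these pairs bind latent TGF-beta. The β4 chain pairs with α6 only and anchors hemidesmosomes to laminin. RNA levels say which pairs could form, not which are at the cell surface.

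Total counts ranged from 1687466 to 2148715 in WT and from 2234305 to 3126208 in KO libraries. The number of genes at a given count had a second peak beyond the lowest counts, at 15, 20 and 40 counts in the WT libraries and at 43, 45 and 60 counts in the KO libraries (replicates 4, 5 and 6 in this order). Counts of Itgb3, Itgb4 and Itgb8 were at most 4.53 times these peaks in any library, and the peak stood at a higher count in every KO than in any WT library. Its part in their values was not tested. Replicates correlated with Pearson r from 0.571 to 0.705 (log2 CPM, counts scaled to TMM-adjusted library size, over 8200 genes), and libraries of different groups with r from 0.543 to 0.630. Nat10 had 168, 128 and 292 counts in WT and 315, 133 and 445 in KO libraries, or 112 ± 53.1 and 106 ± 43.1 CPM (SD, n = 3 each). The groups overlapped (log2 fold change -0.07, 95% interval -1.09 to 0.94, edgeR), so the targeted transcript does not check the labels, and directions are those of the libraries labelled KO. Of 13 markers of ovarian surface epithelium and mesothelium, 12 had a count, with a summed level of 6493 to 6951 CPM in WT and 5054 to 5776 CPM in KO. Of 5 epithelial markers 1, Cdh1, had counts, at 0 to 30.4 CPM in WT and 0 in every KO library, and Epcam, Cldn4, Cldn7 and Pax8 were at 0. Fibroblast and muscle markers, 10 of 11 of them counted, summed to 756 to 780 CPM in WT and 983 to 1325 CPM in KO. Leukocyte markers summed to at most 14.5 CPM, with Cd3e, Cd79a, Itgam and Itgax among those at 0. Of 5 endothelial markers 4 had a count, none in every library. All 3 platelet markers, the platelet integrin gene Itga2b among them, were at 0. In bulk RNA fewer cells of a type and less RNA per cell cannot be told apart.

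Itgb1 and Itga3 were by far the most abundant integrin transcripts in ID8 cells. Levels between genes were compared per length, as TPM (counts per length of annotated exon, scaled to the same total in each library). Over the 6 libraries Itgb1 averaged 548 ± 105 TPM and Itga3 537 ± 91.4 TPM (SD, n = 6), with overlapping ranges. The αv gene Itgav followed at 136 ± 38.8 TPM and the α5 gene Itga5 at 81.8 ± 31.0 TPM. Their ranges overlapped each other, and that of Itgav lay below the lowest value of Itga3. Itga6 stood at 33.5 ± 7.85 TPM and Itgb5 at 32.3 ± 8.81 TPM, with overlapping ranges, and the range of Itga6 just reached that of Itga5. With the length of the longest transcript in place of all exons Itga6 averaged 59.1 TPM and Itgb5 29.5 TPM. Below these came Itgb3 at 8.56 ± 7.80 TPM and Itgb4 at 4.71 ± 7.23 TPM, each absent from at least 1 library. Itga7 had 5 counts in KO replicate 6 and none elsewhere, and Itga2 had no count in any library. The floor of 3 counts over all 6 libraries is 0.221 CPM for such a gene, which covers counting error only.

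**Figure D1:**
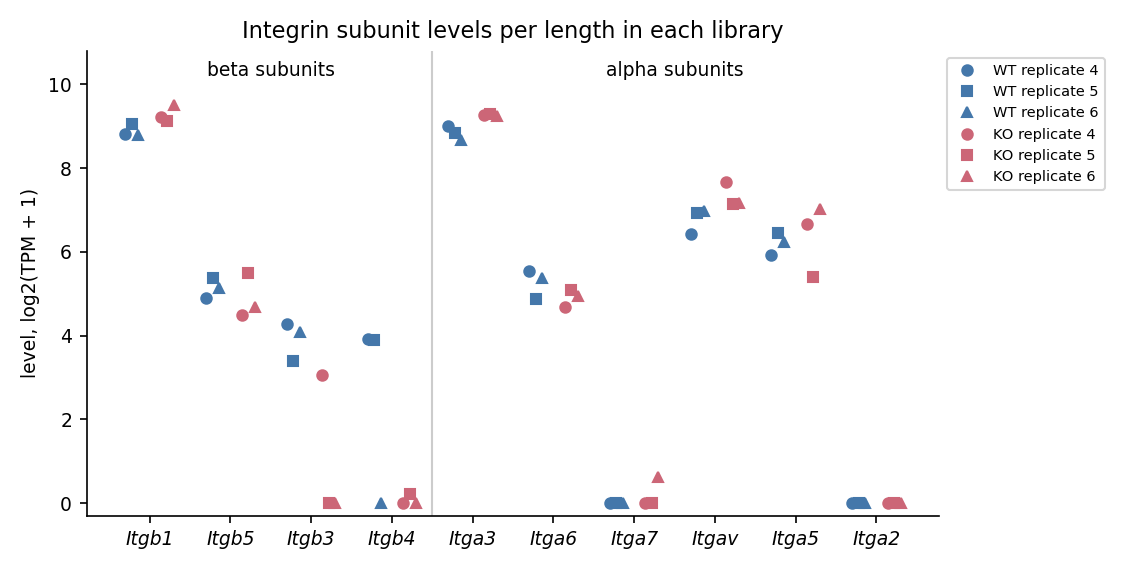
Level of each of the 10 integrin subunits in each library, as log2(TPM + 1), with beta subunits on the left and alpha subunits on the right. Blue points are WT and red points KO libraries, and symbols mark the replicate number. Itgb1 and Itga3 stand highest, Itgb3 and Itgb4 are at 0 in some libraries, and Itga2 is at 0 in all 6.

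The DNA just before the start sites of the 4 subunits with the highest mean TPM and of Itga2, which had no count, is shown because these genes span the whole range of levels. Promoter sequence was on hand for 6 of the 10 members (RefSeq, GRCm38.p6). Each line gives the 150 bases before the outermost annotated start, 5′ to 3′ on the gene's strand, with CG dinucleotides in capitals.
Itgb1 (chr8:128685504-128685653, + strand): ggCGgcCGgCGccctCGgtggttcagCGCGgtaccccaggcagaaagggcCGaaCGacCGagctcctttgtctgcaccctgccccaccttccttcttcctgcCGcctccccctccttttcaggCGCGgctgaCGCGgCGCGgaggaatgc
Itga3 (chr11:95076802-95076951, - strand): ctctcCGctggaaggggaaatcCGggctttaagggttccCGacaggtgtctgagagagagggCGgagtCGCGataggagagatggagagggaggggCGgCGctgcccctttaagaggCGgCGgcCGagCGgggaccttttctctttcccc
Itgav (chr2:83724247-83724396, + strand): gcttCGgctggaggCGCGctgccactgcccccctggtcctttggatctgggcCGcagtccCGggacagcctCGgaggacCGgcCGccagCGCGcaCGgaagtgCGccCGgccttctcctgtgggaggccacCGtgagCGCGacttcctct
Itga5 (chr15:103366792-103366941, - strand): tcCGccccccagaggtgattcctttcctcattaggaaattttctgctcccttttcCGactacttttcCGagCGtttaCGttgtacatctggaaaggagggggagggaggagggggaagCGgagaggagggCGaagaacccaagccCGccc
Itga2 (chr13:114932101-114932250, - strand): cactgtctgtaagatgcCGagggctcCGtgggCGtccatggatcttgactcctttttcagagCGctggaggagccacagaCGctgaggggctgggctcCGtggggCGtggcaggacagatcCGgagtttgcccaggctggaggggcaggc
The windows hold 16, 12, 16, 8 and 8 CG dinucleotides in this order, against a median of 4 over 32843 promoter windows of the same length. Itgb5 held 14. The silent Itga2 thus had as many as the expressed Itga5, and CG content did not sort these genes by level. A GC box (GGGCGG, either strand) was present in the windows of Itga3, Itga5 and Itgb5 and in 28.6% of all promoter windows, and TATAAA and CCAAT were in none of the 6. A match is a description of the sequence only.

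The alpha chains were mostly of the laminin-binding kind in both lines. Itga3 made up 73.0%, 65.6% and 62.9% of the summed alpha TPM in WT replicates 4, 5 and 6. In KO replicates 4, 5 and 6 it made up 65.1%, 74.1% and 66.8%. With Itga6 and Itga7 added, the laminin-binding share was 72.7% ± 5.79 in WT and 71.9% ± 5.36 in KO (SD, n = 3 per group), and the groups overlapped. The alpha chains of fibronectin and other RGD receptors, Itga5 and Itgav, held 27.0% ± 5.59 and 27.9% ± 5.60. With the longest transcript as length the Itga6 share was 9.14% in WT and 5.40% in KO. Collagen-binding alpha chains held at most 0.825% in any library. The summed alpha level was 1.45 ± 0.127 times that of Itgb1 in WT and 1.46 ± 0.173 times in KO, a difference smaller than the spread of the libraries.

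**Figure D2:**
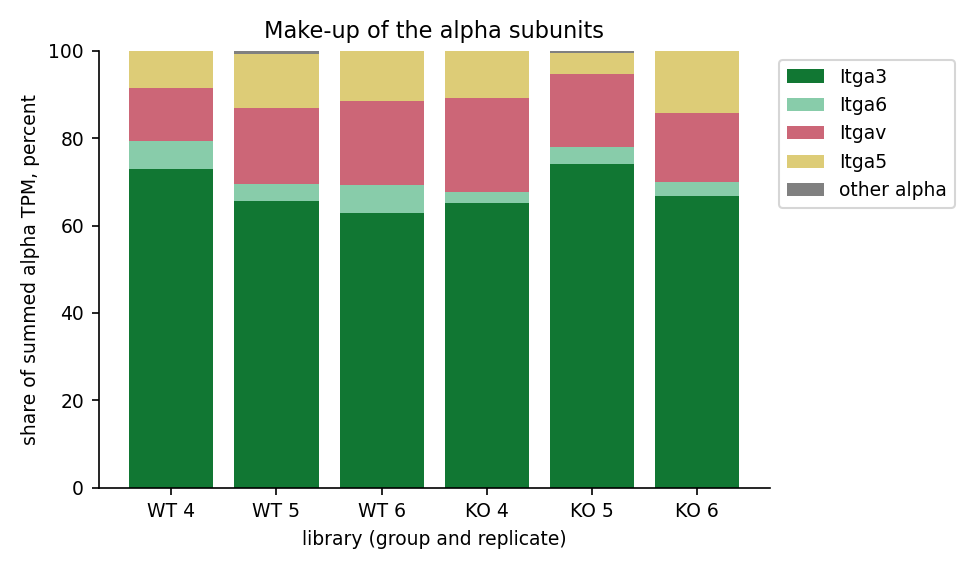
Share of each alpha subunit in the summed alpha-subunit TPM of each library, in percent; bars stack to 100 percent. Itga3 takes between 62.9% and 74.1% in every library, and Itga6 takes a smaller slice in each KO library (2.61% to 3.90%) than in any WT library (4.02% to 6.46%).

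None of the integrin subunits was called different between the lines. Of the 10 members 7 passed the filter on low counts and were tested, and Itgb4, Itga2 and Itga7 were left out. By the quasi-likelihood test of edgeR, adjusted over 8200 genes (Benjamini-Hochberg), 0 of these 7 passed an adjusted p of 0.05, where 0.402% of all tested genes passed. None of the 7 had an unadjusted edgeR p under 0.05, against 6.49% of all tested genes. DESeq2 called none of the 7 and 2.85% of all tested genes, and limma-voom none of the 7 and 43 of 8200 tested genes. Each gave 1 member an unadjusted p under 0.05, as it did 855 (DESeq2) and 675 (limma-voom) of the 8200 genes. Each of the 7 had an edgeR adjusted p of 0.99996. Itgb3 entered the test only because of its WT counts. The groups did not overlap for 2 of the 7, Itga3 (higher) and Itgb3 (lower), where 14.9% of all tested genes did not overlap. The estimates were above 0 for 4 members and below 0 for 3, with a median log2 fold change of 0.12 against -0.02 for all tested genes.

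**Figure D3:**
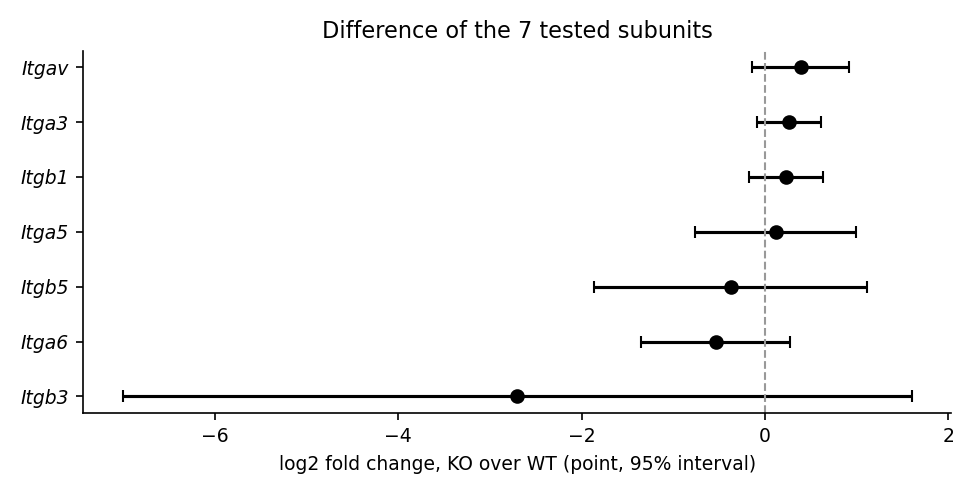
Log2 fold change of KO over WT for the 7 tested integrin subunits, with points for the edgeR estimate and bars for its 95% interval. Every interval spans 0, and that of Itgb3 is the widest, from -7.00 to 1.60.

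The β1 chain (Itgb1, chromosome 8 from 128685654 to 128733200 in mm10), shared by most of the receptors described here, differed little. It stood at 690, 914 and 754 CPM in WT replicates 4, 5 and 6 and at 895, 833 and 1037 CPM in KO replicates 4, 5 and 6. The highest WT library lay above 2 of the KO libraries, so the groups overlapped. The log2 fold change was 0.23 ± 0.19 (SE), and its 95% interval of -0.18 to 0.63 leaves out any rise above 1.55-fold.

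Of the laminin receptor chains, Itga3 and Itga6 had estimates of opposite sign. Itga3 (chromosome 11, 95044474 to 95076801), the α3 chain of the laminin-332 and laminin-511 receptor, stood at 1104, 1104 and 977 CPM in WT and 1296, 1314 and 1221 CPM in KO libraries. Every KO value lay above every WT value, but the step was small. Its log2 fold change was 0.27 ± 0.16 (SE; 95% interval -0.08 to 0.62, edgeR unadjusted p = 0.125), and DESeq2 gave an unadjusted p of 0.0365 and an adjusted p of 0.406. Itga6 (chromosome 2, 71745616 to 71858416), the α6 chain that serves both β1 and β4, stood at 154, 107 and 153 CPM in WT and 81.9, 109 and 94.3 CPM in KO libraries. WT replicate 5 lay just below KO replicate 5, so the groups overlapped. Its log2 fold change was -0.54 ± 0.38 (SE), with an interval of -1.35 to 0.28. Only these libraries overlapped, so leaving out either of them was bound to part the groups, and the gene still did not pass. Of all tested genes 12.6% were lower without overlap when WT replicate 5 was left out. The share was 12.7% when KO replicate 5 was left out.

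Set against Itga3 in the same library, Itga6 was lower in each KO library than in any WT library. In WT the ratio of Itga6 to Itga3 TPM was 0.0885, 0.0613 and 0.0992. In KO it was 0.0400, 0.0526 and 0.0489. This ratio does not depend on how libraries are scaled. It was chosen after its values were seen and was given no test, and 14.9% of all tested genes did not overlap either. Itga7 (chromosome 10, 128933818 to 128958282), the muscle laminin receptor chain, was absent but for the 5 counts already given.

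The β4 chain gene Itgb4 (chromosome 11, 115974709 to 116008412), the hemidesmosomal partner of α6, had 62, 82 and 0 counts in WT and 0, 1 and 0 counts in KO libraries. It was seen in only 2 of the 3 WT libraries, and WT replicate 6 was as empty as the KO libraries, so the groups overlapped. The filter on low counts left Itgb4 out of the test, because it had more than 1 count in only 2 libraries. With no filter on low counts edgeR gave an unadjusted p of 0.0225 and an adjusted p of 0.575. In units of each library's count peak the positive WT values were 4.13 and 4.10. Of the other hemidesmosome genes, Plec, Dst and Cd151 were counted in all 6 libraries, Col17a1 and Krt5 had no count in any library, and Krt14 had 8 counts in KO replicate 4 alone. About 7.66% of the exon bases of Itgb4 are shared with other genes, and no source used here says whether counting used strand.

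The fibronectin and RGD receptor chains gave estimates above 0 for both alpha chains, within the spread of the libraries. Itgav (chromosome 2, 83724397 to 83806916) stood at 344, 546 and 565 CPM in WT and 806, 558 and 541 CPM in KO libraries. KO replicate 4 was the highest, and the other 2 KO libraries lay beside WT replicates 5 and 6. Its log2 fold change was 0.39 ± 0.25 (SE), with an interval of -0.14 to 0.92, and it went from 0.39 to 0.19 without KO replicate 4 or without WT replicate 4. Of its exon bases 5.90% are shared with other genes. Itga5 (chromosome 15, 103344286 to 103366763) stood at 111, 179 and 154 CPM in WT and 184, 74.5 and 223 CPM in KO libraries. KO replicate 5 was the lowest of the 6 and KO replicate 6 the highest, so the KO values enclosed those of WT. The log2 fold change was 0.12 ± 0.41 (SE; interval -0.76 to 0.99). It turned to -0.05 without WT replicate 4 and to -0.20 without KO replicate 6, and rose to 0.47 without KO replicate 5.

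Of the beta chains that pair with αv, Itgb5 was seen in every library and Itgb3 was not. Itgb5 (chromosome 16, 33829665 to 33949338), the β5 chain of the vitronectin receptor αvβ5, stood at 38.9, 60.5 and 51.5 CPM in WT and 28.1, 57.4 and 31.0 CPM in KO libraries. The groups overlapped, with KO replicate 5 next to the highest WT value, and the log2 fold change was -0.37 ± 0.70 (SE; interval -1.86 to 1.11). Itgb3 (chromosome 11, 104608000 to 104670476), the β3 chain of αvβ3, had 68, 47 and 69 counts in WT and 41, 0 and 0 counts in KO libraries. Every WT library held more of it than any KO library. Its log2 fold change was -2.70 ± 2.01 (SE), and the interval of -7.00 to 1.60 excludes neither a deep loss nor no loss. The estimate went from -2.70 to -9.25 without KO replicate 4, the only KO library with a count (edgeR unadjusted p = 0.00470, adjusted p = 0.350). That fit sets WT against KO libraries at 0 only, so a lower estimate was fixed beforehand and its p says nothing more. The estimate was -6.21 with the replicate number as a block and -5.33 in limma-voom (unadjusted p = 0.0243, adjusted p = 0.481). The Itgb3 counts amounted to 4.53, 2.35 and 1.73 count peaks in WT and 0.953 in KO replicate 4. Itgb8, the β8 chain that binds latent TGF-beta with αv, had 14, 26 and 0 counts in WT and 2, 88 and 0 in KO libraries, with no order between the groups.

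**Figure D4:**
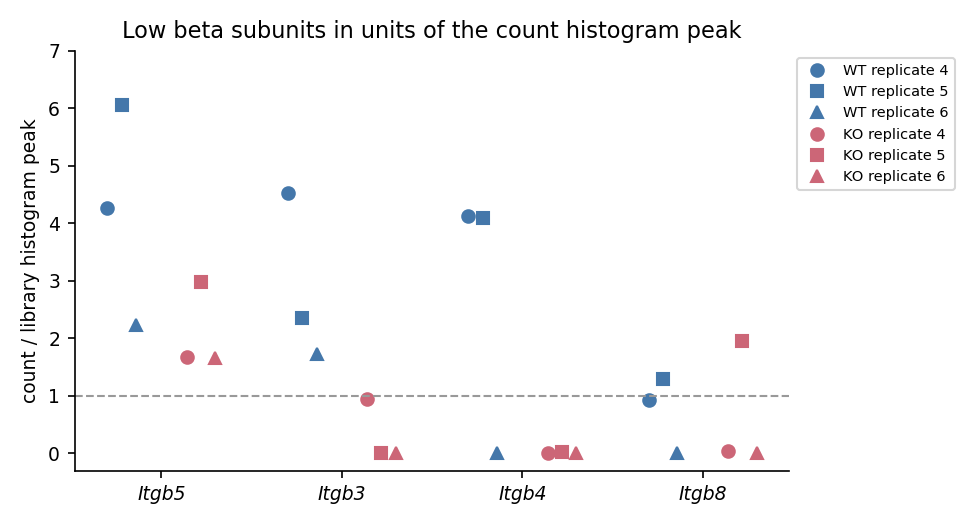
Counts of the low beta subunits Itgb5, Itgb3, Itgb4 and Itgb8 in each library, divided by the count at which that library's histogram of gene counts peaks; the dashed line marks 1 such peak. Every value is at most 6.05 peaks, and the KO values of Itgb3 and Itgb4 are below 1.

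The β1 chain made up a larger part of the beta-chain RNA in KO libraries. Itgb1 held 87.5%, 88.9% and 89.7% of the summed beta TPM in WT and 95.4%, 91.2% and 96.6% in KO libraries, without overlap. For the αv partners other than β1, the ratio of Itgav to the sum of Itgb3, Itgb5 and Itgb8 was 1.71, 2.29 and 2.47 in WT and 7.02, 2.66 and 5.76 in KO libraries, also without overlap, though KO replicate 5 lay close to WT replicate 6. Itgb1 itself overlapped between the groups, so its share also reflects the low beta chains. Itgb4, part of the summed beta TPM, was at 14.2, 13.9 and 0 TPM in WT and at most 0.165 TPM in KO libraries. Counts of Itgb3, Itgb4, Itgb5 and Itgb8 were at most 6.05 times the histogram peak in any library. Neither quantity was set beforehand or given a test, and 14.9% of all tested genes did not overlap either.

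Collagen receptor chains were all but absent. Itga2 (chromosome 13, 114833081 to 114932100) was at 0 throughout. Itga1, on the same chromosome, had 3 counts in KO replicate 6. Itga10 had 2 counts in WT replicate 5 and 16 in KO replicate 5, and Itga11 had 23 counts in WT replicate 5 and 1 in KO replicate 6. No collagen-binding alpha chain was therefore seen in more than 2 of the 6 libraries. Ddr1, a collagen-binding receptor tyrosine kinase outside the integrin family, averaged 115 ± 12.8 CPM over WT and 147 ± 75.0 CPM over KO libraries (SD, n = 3 each).

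Of the 17 other integrin genes, 5 had a count and 1, Itgb8, was tested (log2 fold change 0.83, interval -4.69 to 6.35). Besides those named, Itgb2, the beta chain of leukocyte integrins, had 1 count in KO replicate 6. Itga4, Itga8, Itga9, Itga2b, Itgad, Itgae, Itgal, Itgam, Itgax, Itgb2l, Itgb6 and Itgb7 had none. On RNA alone, the pairs for which both chains were counted in all 6 libraries were α3β1, α5β1, α6β1, αvβ1 and αvβ5.

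Genes that link integrins to the cytoskeleton included the only call of the adhesion lists. Of 41 activators, adaptors and kinases 33 were tested, and in edgeR 1 was called higher and none lower, against 0.183% of all tested genes called higher. At an unadjusted p under 0.05, 4 were higher, against 2.7% of all tested genes. The number called was 0 without WT replicate 5, WT replicate 6, KO replicate 5 or KO replicate 6. Tln1, encoding talin, which binds beta-chain tails to activate integrins, stood at 883, 948 and 996 CPM in WT and 1791, 1381 and 1560 CPM in KO libraries. It did not pass (log2 fold change 0.74 ± 0.17, edgeR adjusted p = 0.0798), whereas DESeq2, limma-voom, library totals, counts divided by the histogram peak and a fit without a filter on low counts put it past the threshold. Tln1 did not pass in the other edgeR fits. With 1 library left out its edgeR adjusted p ran from 0.0971 to 0.460. Ptk2, the focal adhesion kinase, averaged 93.3 ± 6.17 CPM in WT and 172 ± 57.2 CPM in KO (SD, n = 3 each), with an edgeR adjusted p of 0.659. Over the list 21 of 33 estimates were above 0, with a median of 0.31, and 6 genes were higher and none lower without overlap, against 6.94% of all tested genes higher and 7.93% lower.

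Genes of integrin traffic, tetraspanin partners and hemidesmosomes gave no call. Of 28 genes 23 were tested, 11 estimates were above 0 and the median was -0.06. The tetraspanin Cd9, a lateral partner of laminin-binding integrins, stood at 361, 572 and 471 CPM in WT and 226, 289 and 237 CPM in KO (log2 fold change -0.90 ± 0.25, edgeR adjusted p = 0.246). Dab2, an endocytic adaptor for β1, stood at 265 ± 39.4 and 127 ± 33.9 CPM (edgeR adjusted p = 0.304). Plec, the plectin that ties β4 to keratin, averaged 334 ± 100 and 661 ± 298 CPM (edgeR adjusted p = 0.398; SD, n = 3 per group). DESeq2 called 1 gene of this list higher and 2 lower, against 106 and 128 of 8200 tested genes.

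The ligands of the fibronectin and RGD receptors had the highest median of the lists, and none of them was called in edgeR with the filter on low counts. Of 22 listed symbols 21 were in the table, and 8 were tested, with 6 estimates above 0 and a median of 0.89. Fibronectin, Fn1, stood at 321, 292 and 237 CPM in WT and 425, 665 and 644 CPM in KO libraries, all KO values above all WT values (log2 fold change 1.03 ± 0.25, edgeR adjusted p = 0.108). Ltbp1, which tethers latent TGF-beta to the matrix, and Ccn2, connective tissue growth factor, did not pass either (edgeR adjusted p = 0.269 and 0.292). Ltbp1 averaged 211 ± 69.4 CPM in WT and 426 ± 50.7 CPM in KO, Ccn2 231 ± 89.1 and 463 ± 69.5 CPM, and 23.2% of the exon bases of Ccn2 are shared with other genes. In this list 5 of 8 genes were higher without overlap, against 6.94% of all tested genes, and DESeq2 called 3 higher, against 106 of 8200 tested genes. With edgeR 2 were called higher without the filter and 2 with counts divided by the histogram peak, Fn1 in both (edgeR adjusted p = 0.0184 and 0.0144). Fn1 did not pass in limma-voom or in the other edgeR fits. With 1 library left out its edgeR adjusted p ran from 0.0884 to 0.514. Fn1, Ltbp1 and Ccn2 were known from earlier results of these data. Osteopontin, Spp1, the most abundant αv ligand at 3767 ± 756 and 4631 ± 349 CPM, overlapped between the groups, and vitronectin, Vtn, had 3 counts in all.

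Laminin chains, the ligands of α3β1 and α6β1, were present in both lines. Lama5, Lamb1, Lamb2 and Lamc1, the chains of laminin-511 and laminin-521, were counted in every library, while Lama3 and Lamb3 of laminin-332 had no count. Of 11 chains 5 were tested and none passed in edgeR. Lamb1 stood at 130, 152 and 154 CPM in WT and 289, 235 and 305 CPM in KO (log2 fold change 0.93 ± 0.29, edgeR adjusted p = 0.363). It was called higher by DESeq2, as were 106 of 8200 tested genes. Of the 5 chains 1, Lamb1, was higher and 1 was lower without overlap, against 6.94% and 7.93% of all tested genes. Lamc1 averaged 424 ± 89.8 CPM in WT and 316 ± 59.6 CPM in KO (SD, n = 3 each), and its groups overlapped.

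Collagen chains and other matrix receptors had members of either sign. Of 12 collagen genes 8 were tested, none passed in edgeR and the median was -0.38. The sign of this median depended on the filter. It was 0.39 over 12 genes without the filter on low counts. With counts divided by the histogram peak it was 0.25 over 5 genes. Col6a1 had 69, 63 and 60 counts in WT and 0, 0 and 2 in KO libraries (edgeR adjusted p = 0.408), and Col1a1 120, 171 and 74 against 1, 38 and 6 counts (edgeR adjusted p = 0.479). Like Itgb3, both entered the test only because of their WT counts. DESeq2 called 2 collagen genes, both lower, against 128 of 8200 tested genes. Col4a1, a basement membrane chain, stood at 159 ± 28.5 and 243 ± 23.8 CPM (SD, n = 3 per group), without overlap. Of 11 non-integrin matrix receptors 8 were tested and none passed. Cd44, the hyaluronan receptor, stood at 323, 340 and 332 CPM in WT and 644, 590 and 690 CPM in KO (log2 fold change 0.95 ± 0.21, edgeR adjusted p = 0.0657). It passed in DESeq2 and, in edgeR, with library totals, without the filter on low counts and with counts divided by the histogram peak (adjusted p = 0.0302, 0.0305 and 0.00767). Cd44 did not pass in limma-voom (adjusted p = 0.0534) or in the other edgeR fits. With 1 library left out its edgeR adjusted p ran from 0.119 to 0.300. Bcam, the Lutheran receptor for laminin α5, stood at 168, 197 and 177 CPM in WT and 108, 75.4 and 111 CPM in KO (-0.88 ± 0.35, edgeR adjusted p = 0.569), and Rpsa, the laminin receptor that is also a ribosomal protein, at 84.7 ± 27.2 and 28.0 ± 28.1 CPM.

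**Figure D5:**
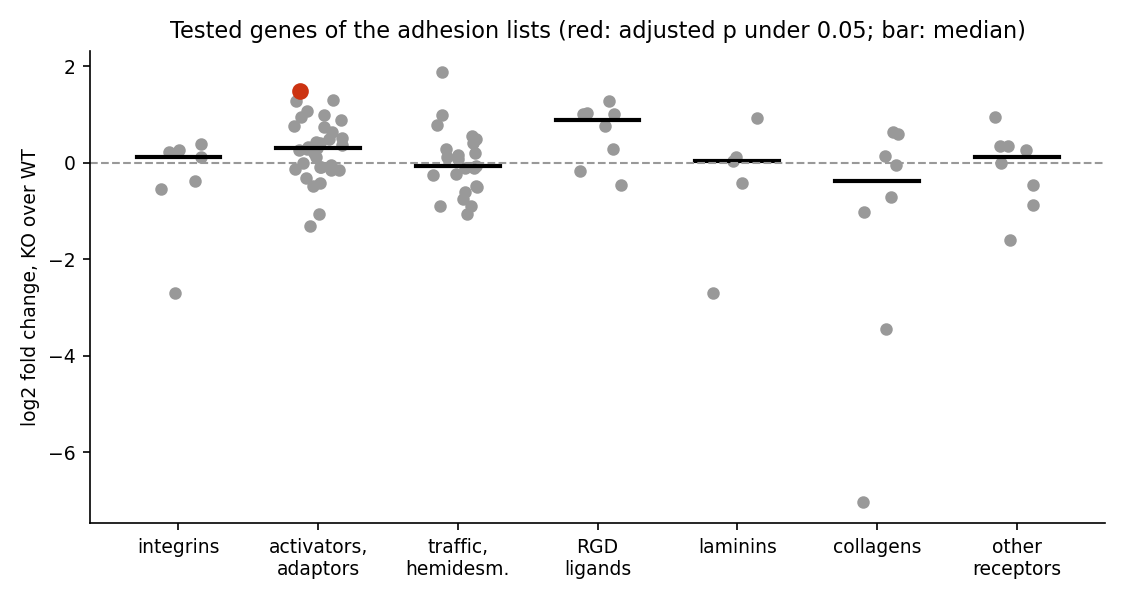
Log2 fold change of KO over WT for each tested gene of 7 adhesion lists, with black bars at the list medians and the 1 gene past the adjusted p of 0.05 in red. The integrin members other than Itgb3 lie between -0.54 and 0.39, and the RGD ligands have the highest median, 0.89.

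Transcript length moved weakly with the differences (Spearman rho 0.07 over 8200 genes). Over the 1339 genes with a mean log2 CPM of at least 7 rho was 0.13. The median log2 fold change was 0.10 for the fifth of tested genes with the longest transcripts and -0.09 for the fifth with the shortest. Tln1, Fn1 and Plec are among the longest, with longest annotated transcripts of 8393, 8315 and 15455 bases. The part of length in their values was not tested.

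Across the 6 libraries the Itgb1 level followed that of Itgav, Itga5 and Itga3 loosely and ran against that of Itga6. As a description over libraries that share their scaling, Pearson r with Itgb1 on log2 CPM was 0.560 for Itgav, 0.603 for Itga5, 0.491 for Itga3 and -0.842 for Itga6 (n = 6). The r of Itgb3 was -0.609 and that of Itgb5 -0.289. These r mix any difference between the groups with that between replicates. Of 4569 genes with a mean log2 CPM of at least 5, 12.4% had a higher r than Itgav. The same share was 10.3% for Itga5, 16.2% for Itga3 and 98.4% for Itga6. The 5 genes most like Itgb1 were Slc29a1 (r = 0.986), Laptm4b (0.980), Nckap1 (0.973), Cars (0.967) and Helb (0.966), picked as the highest of the 4569.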

How the data were processed

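Poly(A) RNA of 6 ID8 libraries was sequenced, per the labels' protocols. The authors deposited raw counts of reads per gene, without normalization. The submitters' processing notes name mm10, featureCounts 1.5.0-p3, HISAT2 2.0.5 and fastp. No source used here gives settings, strand mode or annotation release. Columns numbered 1 to 3 were matched through the labels to replicates 4 to 6. Of 53465 genes 53360 were matched to GENCODE M21, whose exons gave lengths for TPM.

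The test was that of edgeR 4.0.16, run in R 4.3.3 (filterByExpr with a minimum count of 10, TMM, robust quasi-likelihood fit on the group, two-sided, Benjamini-Hochberg over 8200 genes, threshold 0.05), after a check on simulated data. SE and intervals come from the quasi-likelihood statistic. TPM served to compare genes and to form shares and ratios within a library. These shares and ratios, and the TPM of Itgb4, were set side by side between groups without a test. No fold change was taken from TPM, where the median of all tested genes was shifted by 0.14 (log2, pseudocount 0.5) towards KO. Groups do not overlap where every CPM of one lies above every CPM of the other.

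Alternatives were DESeq2 1.42.0, limma-voom (limma 3.58.1), other scalings and filters, a threshold of 0.01, the replicate number as a block, leaving out each library, and the longest transcript as length. Counts divided by the histogram peak, and all fits for the adhesion lists, were added after seeing the data. Members and lists were chosen with earlier results of these data known. The text names the 10 members, counted integrins, Nat10, the genes of each list that passed or else had the smallest p, ligands of the receptors and the 5 genes most like Itgb1. Ddr1, Dst, Cd151, Col17a1, Krt5 and Krt14 were named after their values were seen. Some genes that this rule would name are not reported here.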

Additional observations from a re-analysis of the deposited data

How the results depend on the processing

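No integrin subunit passed the threshold under any alternative that was run, and 6 of the 7 tested subunits kept their sign in each fit that tested them. That of Itga5 ran from -0.20 to 0.47 with 1 library left out and was negative without WT replicate 4 (-0.05) and without KO replicate 6 (-0.20). The number of all genes called, 33, became 234 in DESeq2, 91 without a filter on low counts, 99 with counts divided by the histogram peak, 16 at a threshold of 0.01 and 6 to 29 with 1 library left out. The number of members without overlap, 2, became 4 with library totals, 1 with counts divided by the histogram peak and 2 to 5 with 1 library left out. Itgb3 was too low to test with counts divided by the histogram peak, where 8.63% of all tested genes were higher and 9.26% lower without overlap. With library totals these shares were 8.59% and 6.34%. The 5 members came without KO replicate 5, where 8 members were tested and the shares of all tested genes were 12.3% and 12.7%. Library totals gave 27 higher and 16 lower genes against 15 and 18, and the median log2 fold change of all tested genes was then 0.09 against -0.02. With the longest transcript as length Itgav averaged 175 TPM and Itga6 59.1 TPM. The Itga3 share in WT became 61.9%, the Itga6 share 9.14% in WT and 5.40% in KO, the Itgav share in KO 21.7% and the summed alpha to Itgb1 ratio 1.73 in WT and 1.72 in KO. Same-numbered libraries did not deviate together (r = -0.0167, -0.00258 and -0.00666 for numbers 4, 5 and 6), so the numbers were not taken as pairs. With the replicate number as a block 38 genes were called, none of them a member. Itgb3, Itgb4 and Itgb8 had no count in at least 1 library. All were at 0 in KO replicate 6, which had the highest total (3126208 counts). In WT replicate 4, with the lowest total (1687466 counts), they had 68, 62 and 14 counts. The part of depth in these values was not tested.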
